A study of Mus musculus with 45 samples.

Results

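Secreted proteins of the pancreas and of the liver were followed through 8 genes in sorted epithelium of the embryonic mouse small intestine, out of 23366 genes counted. Clps, Cpa1, Ctrb1 and Amy2b encode digestive proteins of the exocrine pancreas, and Afp, Ttr, Trf and Alb encode plasma proteins of the liver. All 8 were found by symbol, and 7 passed the filter on low counts. Alb did not. Clps, Amy2b and Afp were picked from results of these libraries, so their values are descriptions with no test. Cpa1, Ctrb1, Ttr and Trf were tested, although they too were chosen with results of these libraries known.

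The pancreas and the liver bud from the endoderm next to the region that becomes the duodenum, the first stretch of the small intestine. Acinar cells of the pancreas make digestive enzymes under the transcription factors Ptf1a and Rbpjl, and hepatocytes make most plasma proteins. Several plasma protein genes, Afp, Ttr and the apolipoprotein genes among them, are also read in yolk sac and fetal gut endoderm. A plasma protein transcript in gut epithelium therefore does not by itself mark a liver cell, whereas Cpa1 with Ptf1a is a usual sign of pancreatic cells.

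The cells were EpCAM-positive epithelium of wild-type guts of a mixed C57BL/6 CD1 background, sorted at 500 cells per library. EpCAM is a surface adhesion protein of epithelia. At E9.5 (embryonic day 9.5) the red fluorescent marker tdTomato had been switched on in cells expressing Axin2, which Wnt signalling induces, or Id2, which blocks helix-loop-helix transcription factors. The labels do not describe the alleles that drive the label or how completely cells were labelled. Cells were collected at E15.5 from the posterior and the anterior part of the gut (Axin2 line), and at E13.5 from guts not divided into parts (Axin2 line and Id2 line). The sorted populations were tdTomato+ cells that were Lgr5+, tdTomato+ cells whose Lgr5 state the labels do not give (called labelled cells here), Lgr5+ tdTomato- cells and Lgr5- tdTomato- cells. Lgr5 is a Wnt-pathway receptor known from the stem cells of the adult gut. Each of the 15 groups had 3 libraries, 45 in all. Anterior labelled Lgr5+ cells are not analysed here. A replicate was 1 embryo at E15.5 and a pool of 3 embryos at E13.5. The Id2 line differs from the Axin2 line in the allele, in depth and in the share of reads not assigned to genes, which cannot be told apart. Levels were therefore not tested between the lines, and only the difference of their Lgr5 gates was.

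Reads assigned to genes numbered 16521311 to 19702205 per library in the Axin2 line and 26888154 to 37729425 in the Id2 line. Levels are CPM, the reads of a gene scaled to a common total of reads assigned to genes, and 3 reads correspond to 0.152 to 0.182 CPM in the Axin2 line and 0.0795 to 0.112 CPM in the Id2 line. A count of 0 allows a level up to that value, for counting error only. Epcam was between 1518 and 3369 CPM in all 45 libraries. Cdx2, the transcription factor of intestinal epithelium, was read in all of them too, at 31.3 to 196 CPM in the Axin2 line and 6.95 to 27.6 CPM in the Id2 line. Lgr5 was higher in Lgr5+ than in Lgr5- unlabelled cells at E13.5 in the Axin2 line (log2 fold change 4.02 ± 0.84 SE, adjusted p = 0.00687, edgeR's quasi-likelihood test with Benjamini-Hochberg adjustment) and was not called at that threshold in the other 3 settings (log2 fold changes of 1.28 to 2.45, adjusted p of 0.151 to 1). 2 posterior Lgr5+ libraries (replicates 1 and 3) stood apart with 1452 and 1281 CPM of summed blood cell genes, against at most 112 CPM in any other library. Results of tested members and of most named exocrine, stomach and plasma protein genes between the gut parts are given with and without them. Leaving them out leaves 1 posterior Lgr5+ library taken to vary like the other groups. None of the tested members was called between the stages without them either (adjusted p of 0.344 to 1 by edgeR).

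The promoter windows of 5 of the 8 genes were matched by symbol in RefSeq (GRCm38.p6, 250 bases before to 50 after each start). They are shown because the 3 pancreatic enzymes below moved together between libraries, and because Afp was read in all 45 libraries and Alb, whose start lies 29.8 kb away on chromosome 5, in 14. In the pancreatic windows the capitals mark CACCTG and CAGCTG, which are E-box letters as bound by Ptf1a with its partner, and TTTCCC, the letters that Rbpjl reads in the same site, on either strand. In the hepatic windows the capitals mark GTTAAT, letters from the site of the liver factor Hnf1, on either strand.
Cpa1, chr6:30638968-30639267, plus strand: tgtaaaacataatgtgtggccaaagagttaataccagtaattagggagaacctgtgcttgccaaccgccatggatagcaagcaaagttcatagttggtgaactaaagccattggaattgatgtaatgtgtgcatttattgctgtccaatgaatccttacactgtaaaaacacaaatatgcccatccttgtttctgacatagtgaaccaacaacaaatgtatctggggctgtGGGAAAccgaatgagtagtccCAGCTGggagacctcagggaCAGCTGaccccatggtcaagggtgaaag
Ctrb1, chr8:111690961-111691260, minus strand: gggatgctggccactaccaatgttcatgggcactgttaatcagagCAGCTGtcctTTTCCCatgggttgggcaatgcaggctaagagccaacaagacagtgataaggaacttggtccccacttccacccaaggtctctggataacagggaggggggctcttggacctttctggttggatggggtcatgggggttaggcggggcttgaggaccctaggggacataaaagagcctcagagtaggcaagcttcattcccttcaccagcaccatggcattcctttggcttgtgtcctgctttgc
Amy2b, chr3:113156678-113156977, minus strand: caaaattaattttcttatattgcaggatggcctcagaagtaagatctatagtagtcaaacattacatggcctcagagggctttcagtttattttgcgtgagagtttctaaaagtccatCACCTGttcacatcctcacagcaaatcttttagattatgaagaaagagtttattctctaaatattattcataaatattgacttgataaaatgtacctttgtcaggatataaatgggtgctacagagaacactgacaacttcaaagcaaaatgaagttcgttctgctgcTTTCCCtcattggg
Afp, chr5:90490464-90490763, plus strand: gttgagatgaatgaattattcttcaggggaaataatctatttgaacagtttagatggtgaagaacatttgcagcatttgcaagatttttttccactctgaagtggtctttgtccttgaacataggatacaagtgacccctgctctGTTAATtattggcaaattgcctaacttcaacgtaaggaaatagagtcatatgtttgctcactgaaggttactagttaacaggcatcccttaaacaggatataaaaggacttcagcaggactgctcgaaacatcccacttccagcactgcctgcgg
Alb, chr5:90460620-90460919, plus strand: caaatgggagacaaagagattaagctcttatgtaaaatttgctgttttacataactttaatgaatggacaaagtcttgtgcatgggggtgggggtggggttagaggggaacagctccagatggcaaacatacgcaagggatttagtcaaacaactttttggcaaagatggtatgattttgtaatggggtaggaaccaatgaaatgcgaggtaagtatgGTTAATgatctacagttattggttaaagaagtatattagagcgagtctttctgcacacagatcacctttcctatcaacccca
Each pancreatic window held 1 TTTCCC match, as did the window of Afp, where it is not capitalised. Cpa1 also held 2 CAGCTG matches and Ctrb1 held 1, while Amy2b held 1 CACCTG match. Of all 32851 promoter windows of the same length, 25.2% held TTTCCC, 16.3% CAGCTG and 20.2% CACCTG. In Ctrb1 the CAGCTG and TTTCCC matches began 205 and 195 bases before the start. In Amy2b CACCTG began 132 bases before the start and TTTCCC 36 bases after it, so these 2 matches are far apart. In Cpa1 TTTCCC began 19 bases before the start and the CAGCTG matches 2 and 22 bases after it. Afp and Alb each held 1 GTTAAT, beginning 105 and 32 bases before the start, as did the windows of Cpa1 and Ctrb1, where it is not capitalised, and 7.10% of all windows held it. CAGCTG reads the same on both strands and was counted in 1 direction only, and no 2 capitalised matches overlapped. These matches describe the letters of the windows and not bound sites.

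Cpa1, carboxypeptidase A1, trims amino acids from the ends of dietary proteins and also marks early pancreatic tip cells. In the posterior part at E15.5 it was counted at 0 reads in 8 of 12 libraries and reached at most 0.360 CPM (6 reads). In the anterior part it was at 182, 21.7 and 0 CPM in labelled cells, at 0.240, 158 and 0 CPM in Lgr5+ cells and at 141, 218 and 0 CPM in Lgr5- cells (replicates 1, 2 and 3). Replicate 3 was thus at 0 reads in all 3 anterior populations, and replicate 2 was above 20 CPM in all 3. Pooled over the 3 populations present in both parts, 13 reads in the posterior part stood against 13588 in the anterior part. In bulk libraries such as these, fewer cells of a type and less RNA per cell cannot be told apart.

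Ctrb1, chymotrypsinogen B, the precursor of a protease, had the same layout. The posterior libraries held between 0 and 0.182 CPM. The anterior libraries held 390, 50.8 and 0.111 CPM in labelled cells, 0.479, 348 and 0 CPM in Lgr5+ cells and 98.9, 345 and 0.278 CPM in Lgr5- cells. The 5 anterior libraries with high Cpa1 were the 5 with high Ctrb1, and the other 4 overlapped with the posterior libraries or lay just above them. Amy2b, a pancreatic amylase that splits starch, reached 19.6 CPM (375 reads) in anterior Lgr5- cells (replicate 2), 13.2 CPM in Lgr5+ cells (replicate 2) and 9.42 CPM in Lgr5- cells (replicate 1). Labelled replicate 1 held 346 reads. Labelled replicate 2 held 1.42 CPM, the other 4 anterior libraries held 0 to 0.0556 CPM, and 1 read in all was counted over the 12 posterior libraries. Amy2a5, a closely related amylase copy, had 0 reads in all 45 libraries. The tables set reads with several alignments apart from the genes, so the level of Amy2b is uncertain.

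Posterior against anterior cells, averaged over labelled, Lgr5+ and Lgr5- cells, tests whether the enzymes differ along the gut. Cpa1 fell (mean 0.0831 ± 0.137 CPM in the posterior part against 80.0 ± 92.2 CPM in the anterior part, SD, n = 9 each, adjusted p = 0.00165) and Ctrb1 fell (0.0775 ± 0.0611 CPM in the posterior part against 137 ± 172 CPM in the anterior part, adjusted p = 6.56e-05, edgeR's quasi-likelihood test with Benjamini-Hochberg adjustment). The pooled ratios were -9.97 and -10.86 on the log2 scale. Of all 15513 genes tested, the posterior part was lower in 1.78% and higher in 1.86%. The Cpa1 call rested on single libraries: without anterior Lgr5+ replicate 2 its adjusted p was 0.514, and without the 2 posterior libraries with blood cell genes it was 0.0961. In the remaining posterior Lgr5+ library Cpa1 was at 0.0537 CPM. Ctrb1 remained called in all 18 fits that left out 1 library (largest adjusted p = 0.0208) and without those 2 libraries (adjusted p = 0.0219). Libraries of the same number may come from the same embryo, which the labels do not say, and these tests treat the 9 libraries of a part as independent. Summed over the 3 populations by replicate number, Cpa1 was at 0.0956, 0.128 and 0.0194 CPM in the posterior part against 112, 131 and 0 CPM in the anterior part. The sums of Ctrb1 were 0.0765, 0.0549 and 0.0971 CPM in the posterior part against 172, 244 and 0.131 CPM in the anterior part. By number the parts thus overlapped for Cpa1, and for Ctrb1 they were set apart in replicate 3 by 5 reads in the posterior part against 7 in the anterior part.

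**Figure D1:**
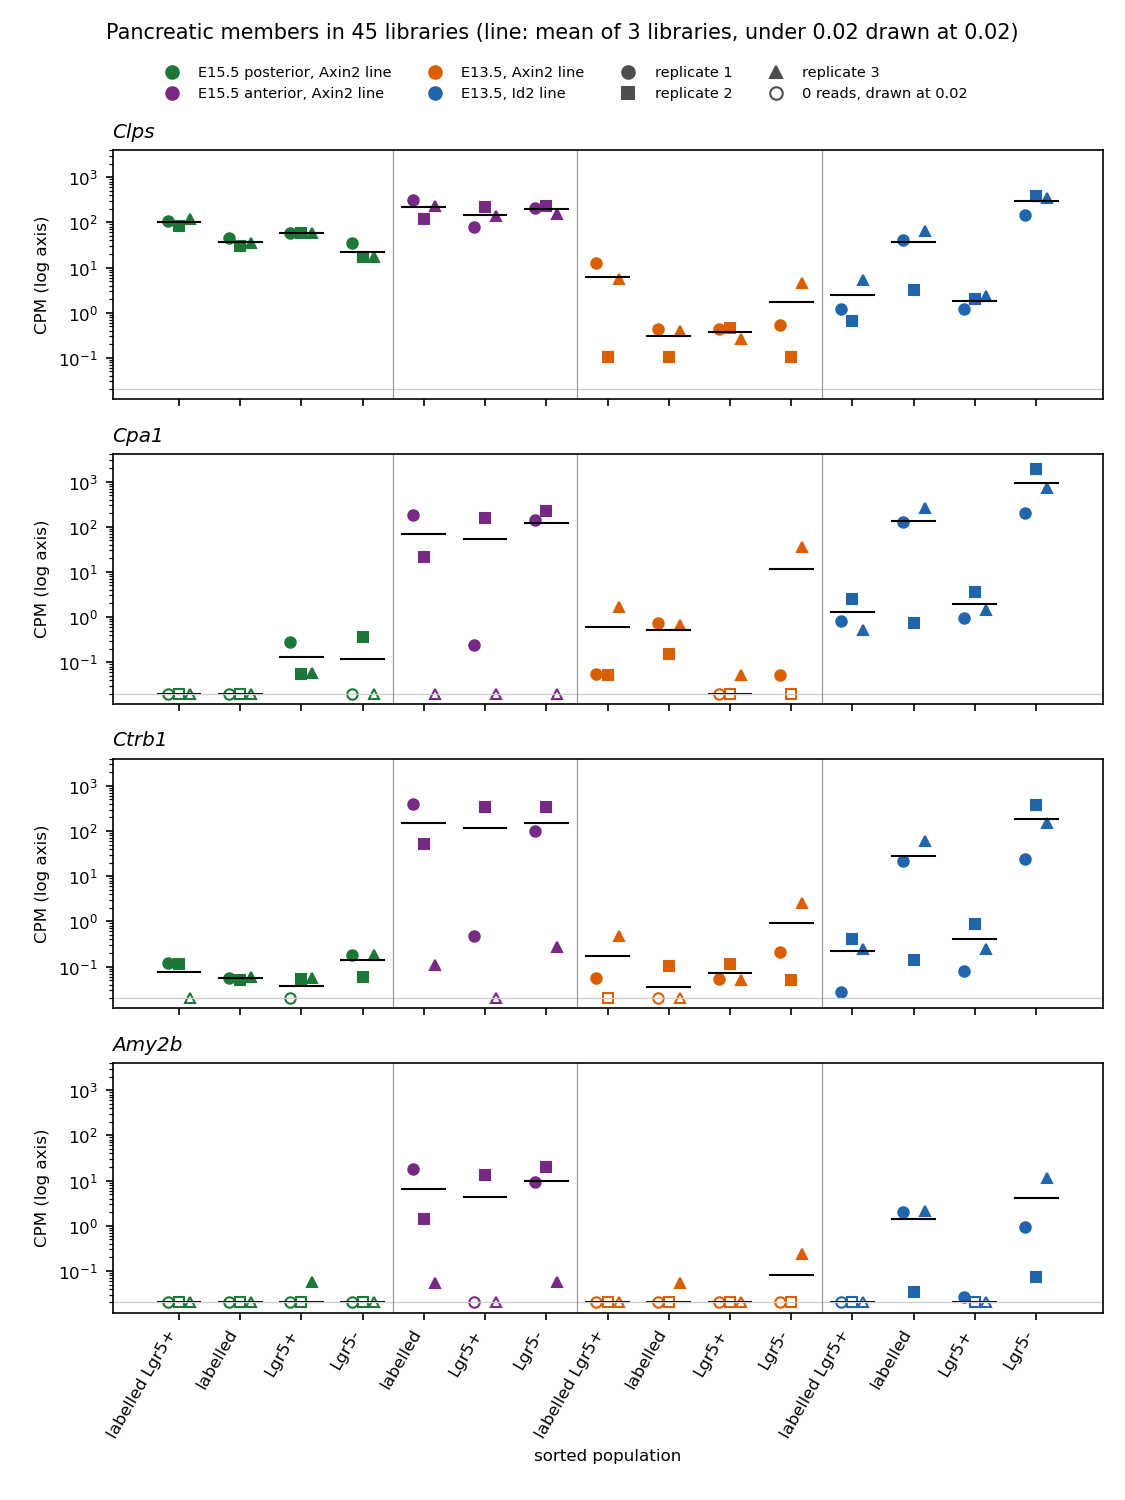
Levels of Clps, Cpa1, Ctrb1 and Amy2b (CPM, log axis) in each of the 45 libraries, by sorted population, with the mean of 3 libraries as a line and 0 reads drawn at 0.02. Cpa1, Ctrb1 and Amy2b are near 0 in the posterior part and in anterior replicate 3, whereas Clps is at 16.8 CPM or more in all 21 E15.5 libraries.

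Clps, colipase, the cofactor that lets pancreatic lipase act on fat droplets, shared that layout only in part. In the posterior part it was at 106, 81.6 and 118 CPM in labelled Lgr5+ cells, at 46.1, 29.4 and 34.7 CPM in labelled cells, at 59.0, 56.8 and 58.3 CPM in Lgr5+ cells and at 34.2, 16.9 and 16.8 CPM in Lgr5- cells. In the anterior part it was at 307, 117 and 229 CPM in labelled cells, at 77.7, 218 and 139 CPM in Lgr5+ cells and at 203, 236 and 153 CPM in Lgr5- cells. The 9 anterior libraries lay at 77.7 CPM or more and the 9 posterior libraries of the same populations at 59.0 CPM or less, so they did not overlap. Anterior replicate 3, with 0 Cpa1 reads in each population, held 229, 139 and 153 CPM of Clps. In each anterior population the library highest in Clps was also the highest in Cpa1 (labelled replicate 1, Lgr5+ replicate 2 and Lgr5- replicate 2). In labelled Lgr5+ cells of the posterior part, where Cpa1 had 0 reads in all 3 libraries, Clps was above the other posterior populations in every library.

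At E13.5 in the Axin2 line Clps was at 12.8, 0.106 and 5.52 CPM in labelled Lgr5+ cells, at 0.429, 0.104 and 0.385 CPM in labelled cells, at 0.429, 0.460 and 0.257 CPM in Lgr5+ cells and at 0.522, 0.103 and 4.50 CPM in Lgr5- cells. All 12 values were below the lowest E15.5 library, at 16.8 CPM. Over the 3 populations present at both stages the mean was 113 ± 90.9 CPM at E15.5 (SD, n = 18) against 0.799 ± 1.40 CPM at E13.5 (SD, n = 9). The fitted log2 fold change was 7.18 and is given without a test. Summed levels of 12 enteroendocrine genes, which mark the hormone cells of the gut, ran from 206 to 1905 CPM at E15.5 and from 10.2 to 119 CPM at E13.5 in the Axin2 line. Within the posterior part the medians of that sum were 1495 CPM in labelled Lgr5+ cells, 1138 CPM in Lgr5+ cells, 455 CPM in labelled cells and 214 CPM in Lgr5- cells, the same order as the mean of Clps. In the anterior part the order differed, with sums of 720.2 CPM in labelled cells, 737 CPM in Lgr5+ cells and 695 CPM in Lgr5- cells, where Clps averaged 218, 145 and 197 CPM. In the Id2 line the medians of the sum were 90.2 CPM in labelled Lgr5+ cells and 49.8 CPM in labelled cells, where Clps averaged 2.42 and 36.4 CPM. In Lgr5+ and Lgr5- cells of that line the medians were 72.6 and 104 CPM, and Clps averaged 1.85 and 291 CPM. The part of enteroendocrine cells in the level of Clps was not tested.

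**Figure D2:**
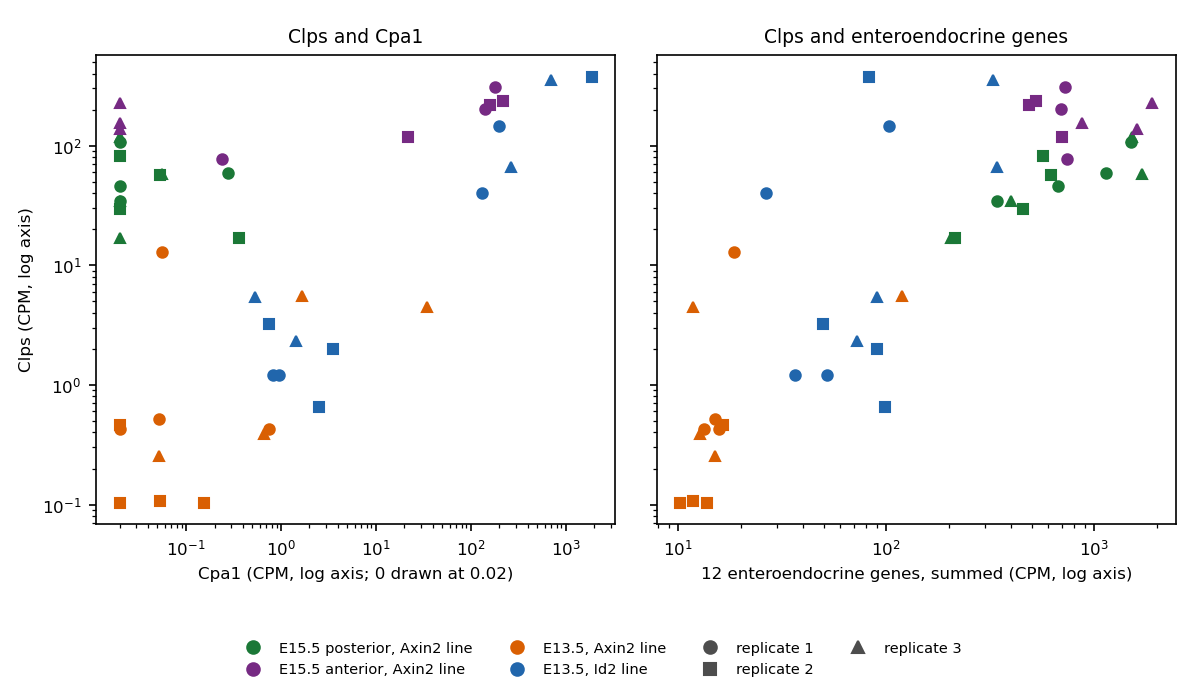
Clps (CPM, log axis) against Cpa1 (left, CPM, log axis, 0 drawn at 0.02) and against the summed level of 12 enteroendocrine genes (right, CPM, log axis), 1 point per library. The E15.5 libraries with Cpa1 at 0 reads hold 16.8 to 229 CPM of Clps, and those with Cpa1 above 100 CPM hold 203 to 307 CPM. The enteroendocrine sums of all E15.5 libraries lie at 206 CPM or more.

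The genes whose pattern over libraries was most like each member were ranked by Pearson's r of log2 CPM over the 45 libraries, after subtracting the mean of each line, as a description across libraries that share stages and may share embryos. For Clps they were Pax4 (r = 0.913), Nkx2-2 (0.912) and Scgn (0.904). Pax4 and Nkx2-2 are transcription factors of endocrine cells and Scgn encodes secretagogin, a calcium-binding protein of such cells. For Cpa1 they were Ptf1a (0.956), Rbpjl (0.946) and Cel (0.936), the last a bile salt-stimulated lipase. For Ctrb1 they were Cel (0.975), Serpini2 (0.971), a serine protease inhibitor, and Ptf1a (0.969). For Amy2b they were Cckar (0.930), a cholecystokinin receptor, Mat1a (0.923), which makes S-adenosylmethionine, and Cela2a (0.916), an elastase. Among the members themselves r was 0.949 between Cpa1 and Ctrb1, 0.875 between Amy2b and Cpa1 and 0.909 between Amy2b and Ctrb1. Clps and Cpa1 correlated at r = 0.318 within the Axin2 line and at 0.939 within the Id2 line. With Pax4, Nkx2-2 and Scgn, r of Clps was 0.925, 0.917 and 0.917 within the Axin2 line. Within the Id2 line these were 0.871, 0.893 and 0.859.

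In the Id2 line at E13.5 the pancreatic genes were read mainly in 2 of the 4 populations. Cpa1 was at 0.828, 2.49 and 0.528 CPM in labelled Lgr5+ cells, at 130, 0.757 and 263 CPM in labelled cells, at 0.956, 3.57 and 1.45 CPM in Lgr5+ cells and at 200, 1875 and 707 CPM in Lgr5- cells. The Lgr5- libraries all lay above every library of both Lgr5+ populations, and labelled replicate 2 lay among the Lgr5+ libraries.

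Ctrb1 held at most 0.893 CPM in the Lgr5+ populations of the Id2 line, 21.6, 0.138 and 60.7 CPM in labelled cells and 23.5, 376 and 149 CPM in Lgr5- cells. Clps held 0.650 to 5.41 CPM in the Lgr5+ populations, 40.2, 3.20 and 65.9 CPM in labelled cells and 145, 378 and 351 CPM in Lgr5- cells. Amy2b was at 0.941, 0.0741 and 11.5 CPM in Lgr5- cells, so that replicate 2, the highest library for Cpa1, held 2 reads of Amy2b. Labelled replicate 2 was the low library for all 4 pancreatic genes in its group.

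Lgr5+ against Lgr5- unlabelled cells of the Id2 line at E13.5 gave Cpa1 at 1.99 ± 1.39 CPM in Lgr5+ cells against 927 ± 859 CPM in Lgr5- cells (SD, n = 3 each), a log2 fold change of -8.86 ± 2.65 SE with an adjusted p of 0.146. Ctrb1 averaged 0.404 ± 0.430 CPM in Lgr5+ cells and 183 ± 178 CPM in Lgr5- cells (log2 fold change -8.86 ± 2.43 SE, adjusted p = 0.0923, edgeR's quasi-likelihood test with Benjamini-Hochberg adjustment). Neither was called in this fit, in which 0.148% of all genes were higher and 0.329% lower in Lgr5+ cells. Same-numbered libraries of these groups deviated together. In the fit with a replicate block the adjusted p was 0.0122 for Cpa1 and 0.00770 for Ctrb1, with 2.21% of all genes called. Clps, with no test, had a log2 fold change of -7.27. In the Axin2 line the same gate gave adjusted p of 0.703 for Cpa1 and 1 for Ctrb1, and Cpa1 was at 0, 0 and 0.0514 CPM in Lgr5+ cells against 0.0522, 0 and 34.7 CPM in Lgr5- cells. The difference of the gate between the lines was not called for Cpa1 or Ctrb1 (adjusted p = 1.00 by edgeR for both), and 0% of all genes were called for it.

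The share of Ctrb1 in the reads of Ctrb1 and Cpa1 did not overlap between the stages. Among the 12 libraries with at least 100 reads of these genes together, a minimum set after the counts were seen, Ctrb1 gave 68.3%, 70.0%, 68.8%, 41.2% and 61.3% of those reads in the 5 E15.5 anterior libraries. It gave 6.77% to 20% in the 7 E13.5 libraries, with a median of 16.7%. The ranges did not overlap, and the narrowest gap stood between anterior Lgr5- replicate 1 (Wilson 95% interval 39.7 to 42.6%) and Lgr5+ replicate 2 of the Id2 line (13.8 to 28.0%, from 24 Ctrb1 and 96 Cpa1 reads). The intervals cover counting error only. Reads depend on transcript length, so the shares compare libraries and not the levels of the 2 genes. The libraries were selected by their counts and no test was made. Of the 7 E13.5 libraries, 6 came from the Id2 line and all the E15.5 ones from the Axin2 line, so stage and line can hardly be told apart. The single Axin2 library at E13.5 had the lowest share (42 Ctrb1 and 578 Cpa1 reads).

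**Figure D3:**
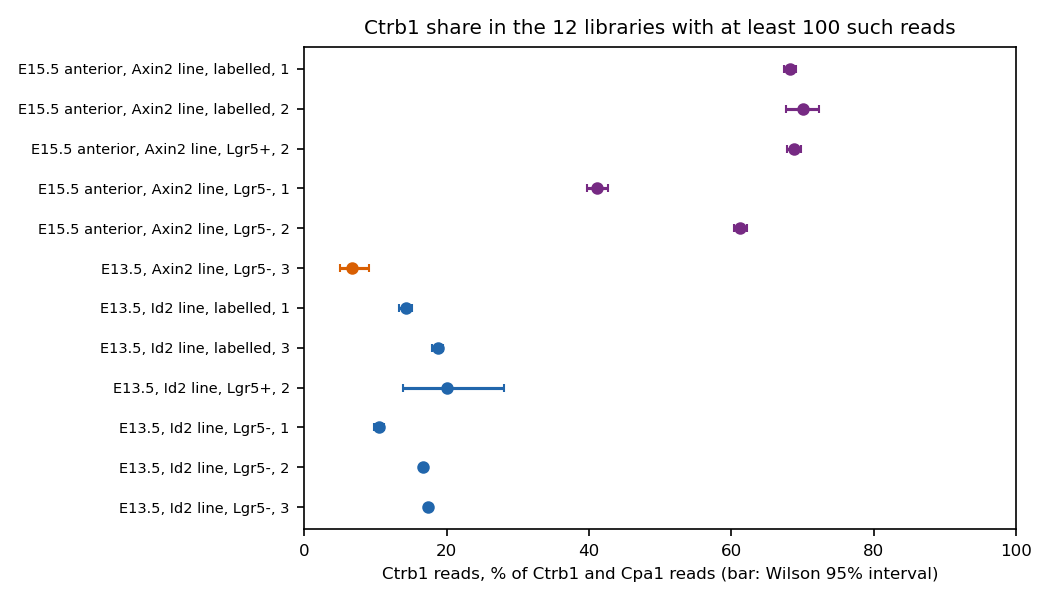
Share of Ctrb1 in the reads of Ctrb1 and Cpa1 (percent, bars are Wilson 95% intervals) in the 12 libraries with at least 100 such reads. The 5 E15.5 anterior libraries lie at 41.2% or more, and the 7 E13.5 libraries at 20% or less.

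Other genes of the exocrine pancreas were read from a list of 28, of which 23 passed the filter, 21 of them besides Clps and Amy2b, which were picked from results. Of these 21, 13 were lower in posterior than in anterior cells and 1 was higher, where 1.78% and 1.86% of all genes were. Of the 13, Cela2a, Cela3b, Cpb1, Prss1 and Try5 were at 0 reads in 34 to 37 of 45 libraries. They peaked in anterior libraries, so the filter on low counts may have set the direction of their fall. The count of calls over this list and the plasma protein list described further on was 24. It was taken over all list genes, those picked from results among them, and is no test of those. That number was 13 without anterior Lgr5+ replicate 2 and 7 without the 2 posterior libraries with blood cell genes. Besides members, those that fell included the acinar transcription factors Ptf1a (0 reads in the posterior part against 722 in the anterior part, adjusted p = 0.00497) and Rbpjl (10 reads in the posterior part against 1850 in the anterior part, adjusted p = 0.00279), the lipases Cel (5 reads in the posterior part against 10643 in the anterior part, adjusted p = 0.000516) and Pnliprp1 (690 reads in the posterior part against 87493 in the anterior part, adjusted p = 4.95e-05), the carboxypeptidase Cpb1, the elastases Cela1, Cela2a and Cela3b, and the trypsinogens Prss1 and Try5 (edgeR, Benjamini-Hochberg). Pla2g1b, a secreted phospholipase, rose (log2 fold change 1.73 ± 0.45 SE, adjusted p = 0.0175). Without the 2 posterior libraries with blood cell genes, 3 of the 21 were called, Ctrb1, Pnliprp1 (adjusted p = 0.0240) and Pla2g1b (0.0113). Ptf1a (0.112), Rbpjl (0.0964), Cel (0.0623), Cpb1 (0.163), Cela1 (0.0530), Cela2a (0.112), Cela3b (0.117), Prss1 (0.109) and Try5 (0.225) were then not called, while each kept a negative fitted fold change. The median log2 ratio of pooled reads over the 23 genes, Clps and Amy2b included, was -6.51. For it, a side of 3 reads or fewer was set to 3 reads. The fitted median of -0.02 over all genes is a different measure and gives no direct comparison. Trypsinogens and elastases have close copies, which makes their counts uncertain.

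Of the same list, Pnliprp1 peaked at 1347 CPM in anterior labelled replicate 1. Ptf1a was at 0 reads in all 12 posterior libraries and in 4 of 9 anterior ones, where it reached 13.2 CPM. The summed level of the list without members was 59.6 to 101 CPM in the posterior part against 45.8 to 2075 CPM in the anterior part. The 4 anterior libraries low in Cpa1 held 45.8 to 69.2 CPM of it. Some genes on it were read in every library, such as Spink3 (33.3 to 81.3 CPM in the posterior part against 15.2 to 38.2 CPM in the anterior part) and Sycn (1.47 to 6.48 CPM in the posterior part against 3.42 to 8.32 CPM in the anterior part). Stomach genes moved with the gut part too. They summed to 3.99 to 14.7 CPM in the posterior part against 9.99 to 36.5 CPM in the anterior part, and Gkn3 (log2 fold change -6.31 ± 1.02 SE, adjusted p = 0.000167) and Nkx6-3 (-5.01 ± 1.25 SE, adjusted p = 0.0151, edgeR) were lower in the posterior part. Without the 2 posterior libraries with blood cell genes Gkn3 was still called (0.0100) and Nkx6-3 was not (0.261). Mesenchyme genes summed to 48.9 to 193 CPM in the posterior part against 18.02 to 84.0 CPM in the anterior part. Vim, the intermediate filament vimentin, was higher in the posterior part (log2 fold change 1.83 ± 0.23 SE, adjusted p = 7.93e-07 by edgeR, and log2 fold change 1.90 without those 2 libraries). The part of these cells in the levels of the pancreatic genes was not tested.

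**Figure D4:**
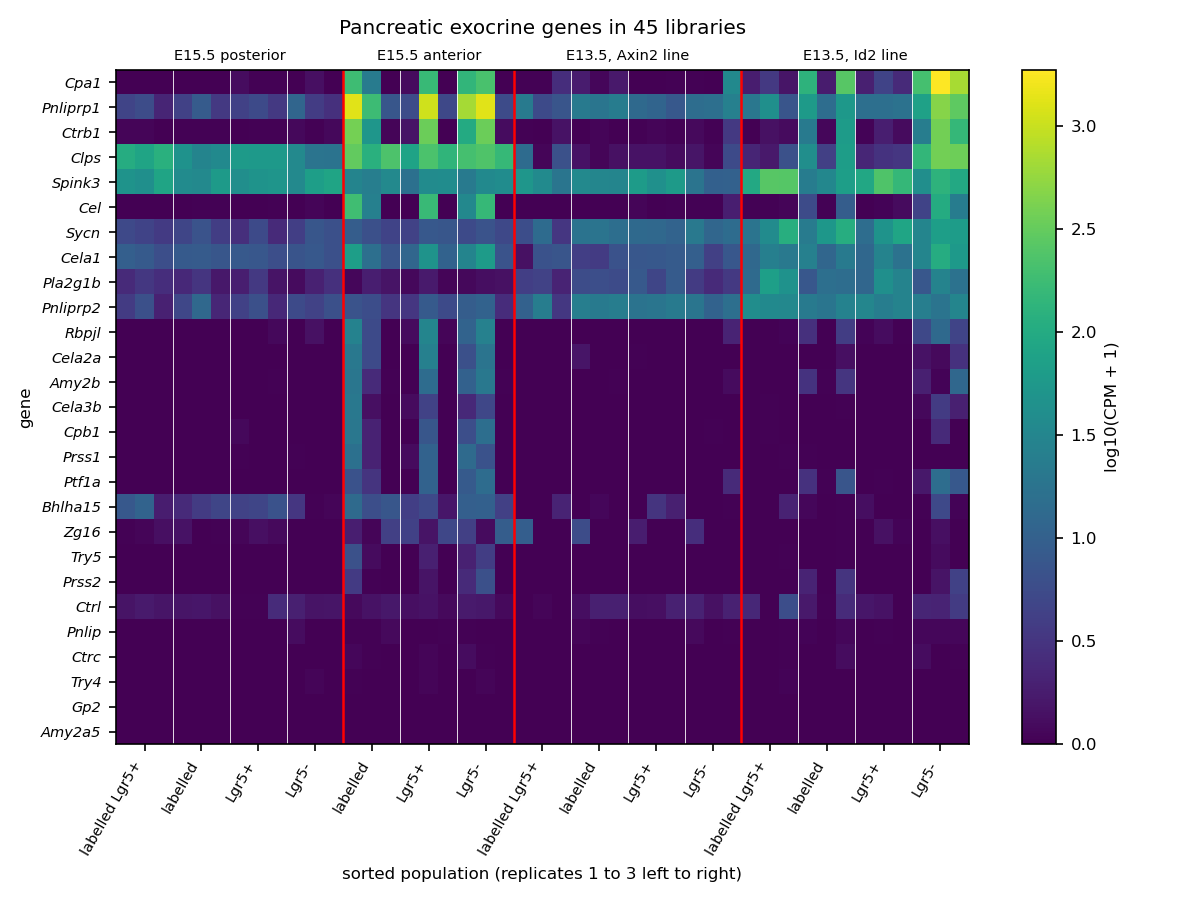
Levels of pancreatic exocrine genes as log10(CPM + 1), with genes in rows and the 45 libraries in columns, grouped by sorted population. Genes such as Cpa1, Ctrb1, Cel and Rbpjl are high in the same few anterior libraries and libraries of the Id2 line, while Clps is at 16.8 CPM or more in all E15.5 libraries.

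Between E15.5 and E13.5 in the Axin2 line, 3 of the same 21 exocrine genes rose and 3 fell, where 15.6% of all genes rose and 17.9% fell. Those that rose included Cela1 and Bhlha15, a transcription factor of secretory cells. Pla2g1b, Pnliprp2 and Sycn, the zymogen granule protein syncollin, were the 3 that fell. Cpa1 averaged 40.1 ± 75.4 CPM at E15.5 (n = 18) against 4.04 ± 11.5 CPM at E13.5 (n = 9), and Ctrb1 68.6 ± 137 CPM at E15.5 against 0.345 ± 0.819 CPM at E13.5 (SD). Neither was called (adjusted p of 1 and 0.216). None of the 4 members tested passed this contrast in edgeR, with 0 at an unadjusted p below 0.05, and DESeq2 called 1, Ctrb1 (adjusted p = 9.99e-05).

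Ttr, transthyretin, the carrier of thyroid hormone and retinol-binding protein, was read in every library. In the posterior part it was at 30.0, 28.5 and 36.0 CPM in labelled Lgr5+ cells, at 26.5, 34.1 and 36.8 CPM in labelled cells, at 61.0, 29.4 and 60.7 CPM in Lgr5+ cells and at 29.6, 54.4 and 45.8 CPM in Lgr5- cells. In the anterior part it was at 52.6, 57.2 and 59.8 CPM in labelled cells, at 54.6, 80.8 and 63.1 CPM in Lgr5+ cells and at 68.9, 79.1 and 67.1 CPM in Lgr5- cells. Within labelled and within Lgr5- cells the parts did not overlap, and within Lgr5+ cells they did. Ttr fell in the posterior part (mean 42.0 ± 13.8 CPM against 64.8 ± 10.1 CPM in the anterior part, SD, n = 9 each, log2 fold change -0.64 ± 0.18 SE, adjusted p = 0.0414 by edgeR). The call was lost in 13 of the 18 fits that left out 1 library (largest adjusted p = 0.113). Without the 2 posterior libraries with blood cell genes, where Ttr was at 61.0 and 60.7 CPM, the log2 fold change was -0.90 (adjusted p = 0.0168). Summed by replicate number, Ttr was at 39.4, 38.6 and 47.9 CPM in the posterior part against 58.8, 72.1 and 63.3 CPM in the anterior part, with no overlap.

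At E13.5 in the Axin2 line Ttr was at 20.7, 24.6 and 23.0 CPM in labelled Lgr5+ cells, at 68.8, 62.7 and 67.4 CPM in labelled cells, at 43.8, 24.4 and 34.2 CPM in Lgr5+ cells and at 111, 56.5 and 76.8 CPM in Lgr5- cells. The Lgr5+ libraries all lay below the Lgr5- ones. Ttr was lower in Lgr5+ than in Lgr5- unlabelled cells by -1.29 ± 0.32 SE on the log2 scale (adjusted p = 0.0387, edgeR's quasi-likelihood test with Benjamini-Hochberg adjustment), where 0.438% of all genes were higher and 0.432% lower. That call was lost without Lgr5+ replicate 2 or 3 or Lgr5- replicate 1 or 3 (largest adjusted p = 0.426).

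In the Id2 line Ttr was at 119, 140 and 158 CPM in labelled Lgr5+ cells, at 174, 281 and 383 CPM in labelled cells, at 76.5, 193 and 145 CPM in Lgr5+ cells and at 209, 398 and 302 CPM in Lgr5- cells. The log2 fold change between Lgr5+ and Lgr5- cells was -1.09 ± 0.32 SE (adjusted p = 0.115, or 0.0110 under the replicate block, by edgeR). The difference of the gate between the lines was 0.20 ± 0.45 SE on the log2 scale (Id2 minus Axin2, adjusted p = 1.00 by edgeR).

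Afp, alpha-fetoprotein, the main plasma protein of the fetus, made by yolk sac and fetal liver, was likewise read in every library. At E15.5 it ranged from 27.5 to 99.6 CPM in the posterior part, with a median of 42.1 CPM, and from 19.5 to 74.9 CPM in the anterior part, with a median of 50.9 CPM. The parts overlapped over most of their range (fitted log2 fold change 0.06, with no test). At E13.5 in the Axin2 line it was at 19.1, 46.4 and 57.8 CPM in labelled Lgr5+ cells, at 131, 135.3 and 144 CPM in labelled cells, at 81.7, 66.4 and 59.0 CPM in Lgr5+ cells and at 183, 127 and 176 CPM in Lgr5- cells. Over the shared populations the mean was 50.1 ± 20.4 CPM at E15.5 (n = 18) against 123 ± 44.7 CPM at E13.5 (SD, n = 9). The log2 fold change was -1.17 and is given without a test.

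In the Id2 line Afp was at 110, 72.5 and 70.6 CPM in labelled Lgr5+ cells, at 239, 171 and 210 CPM in labelled cells, at 117, 94.7 and 79.5 CPM in Lgr5+ cells and at 310, 251 and 218 CPM in Lgr5- cells. At E13.5 the Lgr5+ libraries of each line thus lay below the Lgr5- ones of that line. The log2 fold changes were -1.26 in the Axin2 line and -1.38 in the Id2 line, both without a test. In each line labelled Lgr5+ cells of that stage also lay below labelled cells in every library. At E15.5 the log2 fold change between Lgr5+ and Lgr5- cells was not negative. It was 0.03 in the anterior part and 0.50 in the posterior part, again without a test. The Lgr5+ and Lgr5- libraries overlapped in both parts. Afp in labelled replicate 2 of the Id2 line (171 CPM) was not set apart in the way that Cpa1 was in that library. The genes most like Afp were Rbp4 (r = 0.839), the retinol carrier that Ttr binds, Ctsl (0.812), the protease cathepsin L, and Tmem215 (0.796).

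Trf, transferrin, the iron carrier of plasma, was read in every library. It was at 74.5 to 202 CPM in the posterior part and 139 to 365 CPM in the anterior part, and at 103 to 313 CPM at E13.5 in the Axin2 line and 34.9 to 201 CPM in the Id2 line. In the anterior part and at E13.5 in the Axin2 line, replicate 2 was the highest of the 3 libraries in every population. The mean of 132 ± 35.8 CPM in the posterior part stood against 219 ± 85.3 CPM in the anterior part (SD, n = 9 each, log2 fold change -0.74 ± 0.24 SE, adjusted p = 0.0764 by edgeR), so Trf was not called in this fit. It was called under the replicate block (adjusted p = 0.00351), with the contrast's own libraries (0.0235) and by DESeq2 (0.0398), and not without the 2 posterior libraries with blood cell genes (0.428). The stage contrast gave -0.31 ± 0.20 SE (adjusted p = 0.247) for Trf and -0.09 ± 0.16 SE (adjusted p = 0.715) for Ttr. The genes most like Trf were Galk1 (r = 0.716), a galactokinase, Ptdss1 (0.674), a phosphatidylserine synthase, and Ambp (0.641). Those most like Ttr were Nit2 (0.798), an amidase, Cmtm8 (0.772) and 2010204K13Rik (0.758).

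Alb, serum albumin, the most abundant protein of adult plasma, was at 0 reads in 31 of 45 libraries, although its neighbour Afp, whose promoter window is printed above with that of Alb, was counted in all 45. Only 147 reads of Alb were counted in all, and 84 of them came from labelled replicate 1 of the Id2 line, at 2.23 CPM (exact Poisson 95% interval 1.78 to 2.76 CPM). The other 13 libraries with a read held at most 0.551 CPM. Other hepatocyte genes were as low, with Asgr1 at most at 1.19 CPM, Cyp7a1 at 0.314 CPM and Cyp2e1 at 0.0564 CPM. Of the islet hormone genes, Ins1, Ins2 and Ppy reached at most 0.580 CPM, whereas Iapp reached 9.12 CPM and Gcg, which hormone cells of the gut also express, 156 CPM.

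**Figure D5:**
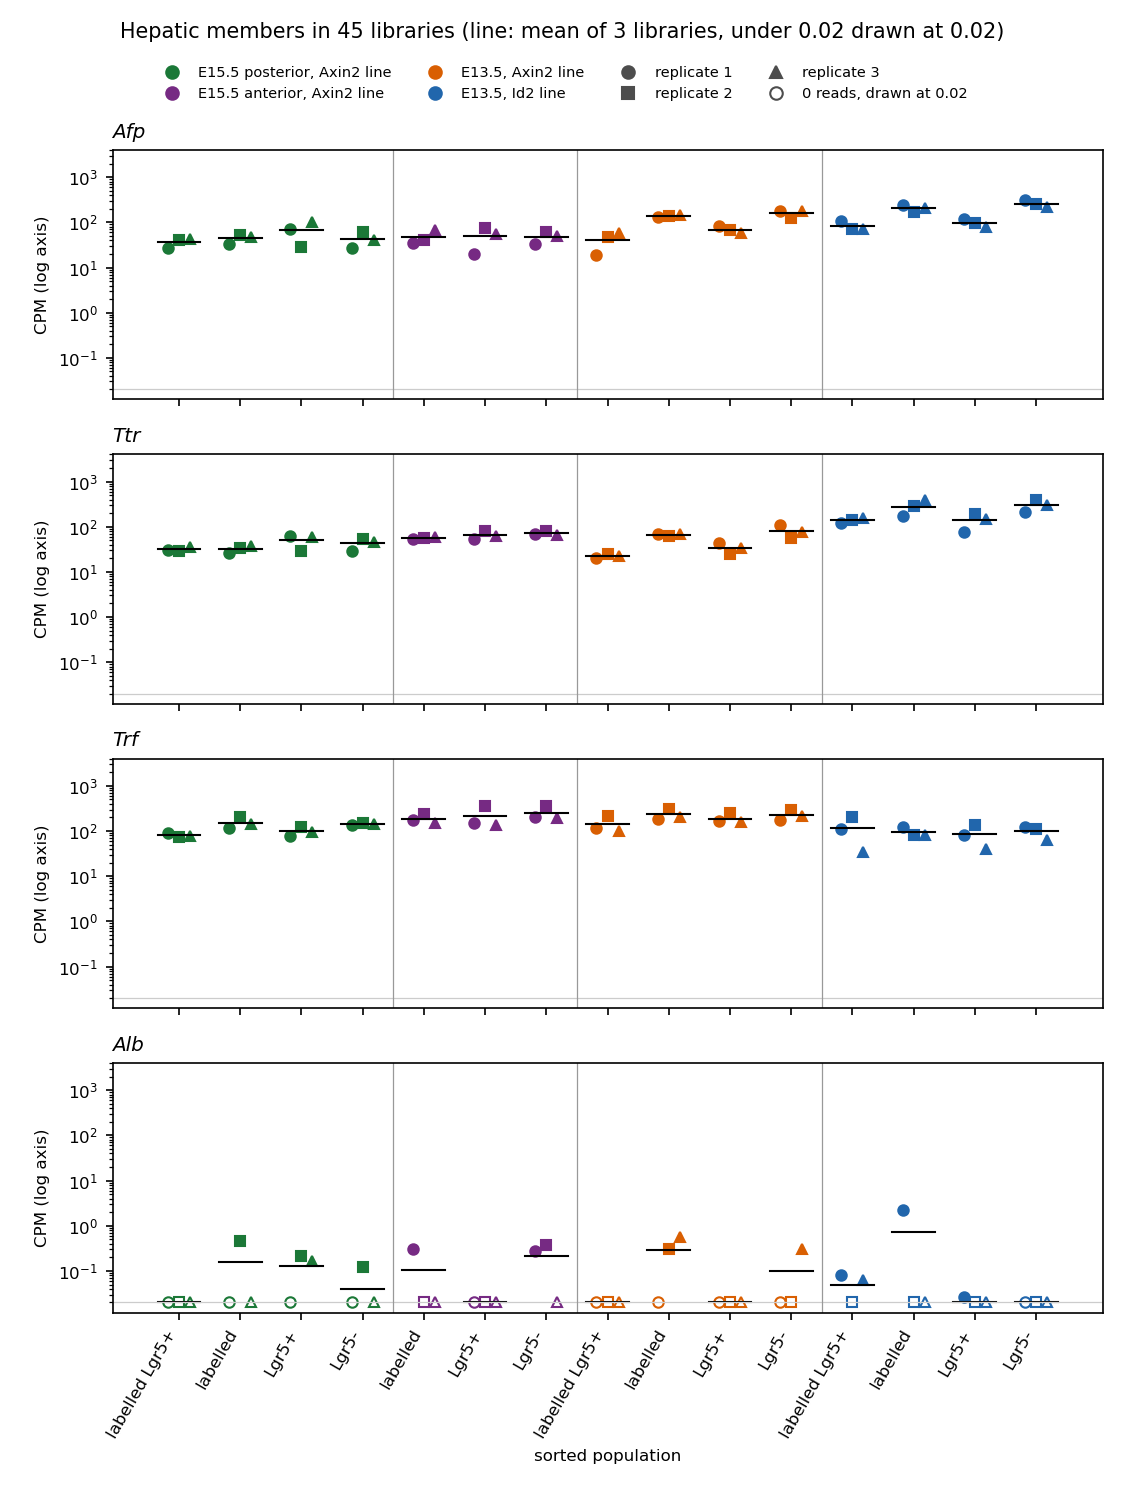
Levels of Afp, Ttr, Trf and Alb (CPM, log axis) in each of the 45 libraries, by sorted population, with the mean of 3 libraries as a line and 0 reads drawn at 0.02. Afp, Ttr and Trf lie between 19.1 and 398 CPM in all libraries, and Alb is at 0 reads in 31 of them.

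Of 29 genes of hepatic plasma proteins, 22 passed the filter, 21 of them besides Afp, which was picked from results. Between posterior and anterior cells 6 of the 21 fell (Ttr, Ambp, Apoa1, Gc, Serpina6 and Vtn) and 2 rose (Rbp4 and Fgb), where 1.78% and 1.86% of all genes did. Apoa1, the main protein of high-density lipoprotein, had a log2 fold change of -1.79 ± 0.38 SE (adjusted p = 0.00288), and Rbp4 of 1.26 ± 0.26 SE (adjusted p = 0.00195, edgeR's quasi-likelihood test with Benjamini-Hochberg adjustment). Without the 2 posterior libraries with blood cell genes, Ttr, Ambp, Apoa1 (adjusted p = 0.00409) and Vtn were still called, and Rbp4 (log2 fold change 0.73, adjusted p = 0.208), Fgb, Gc and Serpina6 were not. The median fitted log2 fold change of the list, Afp included, was -0.26, against -0.02 over all genes. Liver cell genes summed to 1891 to 2728 CPM in the posterior part against 3877 to 5277 CPM in the anterior part, with no overlap, and posterior cells had 4 of the 14 tested called lower and 0 called higher. Their part in the levels of the plasma protein genes was not tested. Between E15.5 and E13.5, 7 of the 21 fell (Ambp, Fgb, Hpx, Plg, Rbp4, Serpina1a and Vtn) and 4 rose (Apoa1, Apoa2, Apoh and Itih3), where 17.9% of all genes fell and 15.6% rose. The list median, Afp included, was -0.47 against -0.04 over all genes. The highest levels on the list were Serpina6, a corticosteroid carrier, at 1479 CPM in Lgr5- replicate 2 of the Id2 line, Rbp4 at 1084 CPM in labelled replicate 2 of the Id2 line, and Apoa1 at 849 CPM in anterior Lgr5- replicate 2.

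Between Lgr5+ and Lgr5- unlabelled cells at E13.5 in the Axin2 line, 5 genes of both lists were called. Ambp, the precursor of a protease inhibitor and of alpha-1-microglobulin (log2 fold change -3.27 ± 0.54 SE, adjusted p = 0.000376), Rbp4 (-2.73 ± 0.46 SE, adjusted p = 0.000641), Apoa1 (-2.84 ± 0.68 SE, adjusted p = 0.0279) and Ttr fell. Spink3, a trypsin inhibitor, rose (2.16 ± 0.48 SE, adjusted p = 0.0135, all by edgeR). Each fit that left out 1 of the 6 libraries called 2 or 3 of the list genes, 2 without Lgr5+ replicate 3 or Lgr5- replicate 3. In the Id2 line Ambp (-2.82 ± 0.53 SE, adjusted p = 0.00450 by edgeR) was the 1 gene called among the list genes not picked from results. Under the replicate block the count over both lists, genes picked from results included, was 10. Mesenchyme genes moved with this gate. They summed to 460.3 to 566 CPM in Lgr5+ cells against 124.6 to 163 CPM in Lgr5- cells of the Axin2 line, and to 448 to 778 CPM in Lgr5+ cells against 199 to 305 CPM in Lgr5- cells of the Id2 line, with no overlap in either. Vim was higher in Lgr5+ cells of the Axin2 line (log2 fold change 1.98 ± 0.39 SE, adjusted p = 0.00388 by edgeR). The part of mesenchyme in these falls was not tested.

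In the remaining contrasts none of the 4 members tested was called by edgeR, and none had an unadjusted p below 0.05. For Lgr5+ against Lgr5- cells, 0% of all genes were called in the anterior part, and 0.329% were higher and 0.0645% lower in the posterior part. For labelled against Lgr5- unlabelled cells, 0% of all genes were called at E13.5 in the Axin2 line and in both gut parts, and 0.00645% in the Id2 line. For the difference of the Lgr5 gate between the gut parts, 0.00645% were called. DESeq2 called 1 member in these contrasts, Cpa1 in labelled against Lgr5- cells of the posterior part (adjusted p = 3.31e-08), where it was at 0 reads in all 3 labelled libraries and at 0, 6 and 0 reads in Lgr5- cells. Among the 45 list genes that passed the filter, the 3 picked from results included, edgeR called 0 in each of these contrasts, with 1 to 10 at an unadjusted p below 0.05, and DESeq2 called 0 to 3.

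Markers of other cell types were read beside these levels. Summed enteroendocrine genes, led by Chgb (up to 810 CPM), Sct (688 CPM) and Cck (168 CPM), reached 341 CPM in the Id2 line. Pancreatic progenitor and endocrine genes, led by Neurog3 (244 CPM), Gcg (156 CPM) and Nkx2-2 (60.4 CPM), summed to 44.5 to 384 CPM at E15.5 and 0.963 to 59.1 CPM at E13.5. Pdx1, the factor of pancreas and duodenum, was 1 of the latter list and was lower in posterior than in anterior cells (log2 fold change -6.48 ± 1.27 SE, adjusted p = 0.00144 by edgeR). Without the 2 posterior libraries with blood cell genes the log2 fold change of Pdx1 was -8.41. Liver cell genes, led by Cps1 (4036 CPM), which gut epithelium also expresses, summed to 450 to 5277 CPM. Stomach genes, led by Pgc (20.7 CPM), Gkn3 (19.1 CPM) and Barx1 (16.3 CPM), summed to 2.45 to 61.1 CPM. Intestinal epithelium genes, led by Epcam, Krt19 (1966 CPM) and Krt18 (1483 CPM), summed to 3637 to 10889 CPM. Mesenchyme genes, led by Col3a1 (669 CPM), Vim (524 CPM) and Acta2 (501 CPM), summed to 18.02 to 1568 CPM, and blood cell genes were led by Hbb-bh1 (854 CPM), Hbb-y (580 CPM) and Alas2 (19.7 CPM). The part of these cell types in the levels of the members was not tested.

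Over all 15 groups, ordered by mean CPM, Lgr5- cells of the Id2 line came first for Clps, Cpa1, Ctrb1, Afp and Ttr. Anterior Lgr5- cells came first for Amy2b and Trf, and labelled cells of the Id2 line for Alb. Most neighbours in these orders did not differ beyond the spread of their libraries. Of 14 neighbouring pairs the ranges overlapped in all 14 for Cpa1, Ctrb1, Amy2b, Trf and Alb, in 13 for Afp, in 12 for Ttr and in 11 for Clps. The gap in the order of Afp stood between labelled cells (137 ± 6.61 CPM) and the next group, Lgr5+ cells of the Id2 line (96.9 ± 18.6 CPM, SD, n = 3 each). For Ttr, labelled cells of the Id2 line (279 ± 105 CPM) stood apart from labelled Lgr5+ cells of that line (139 ± 19.3 CPM), and labelled Lgr5+ cells of the Axin2 line at E13.5 came last (22.8 ± 1.97 CPM).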

How the data were processed

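Each of 45 libraries came from 500 sorted cells, with polyadenylated RNA amplified for 15 cycles, per the labels' protocols. For each the authors deposited unnormalised read counts by gene symbol. bcl2fastq 1.8.4, STAR 2.3.1z13, SAMtools 1.2, HTSeq 0.6.1p1 and DESeq2 1.14.1, with build mm9, are named per the submitters' processing notes. Neither annotation nor strand setting is given in the sources used here. Reads of overlapping or antisense genes may therefore be mixed. Reads carry no molecular identifiers, so intervals cover counting error only. The 5 closing lines that name no gene (23.9 to 29.4% of reads in the Axin2 line, 33.4 to 49.0% in the Id2 line) were left out of totals and tests.

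Counts were tested with edgeR 4.0.16 in R 4.3.3 (quasi-likelihood, robust, TMM) with 15 group means and 30 residual degrees of freedom, after filterByExpr (minimum count 10, minimum total 15), which kept 15513 genes. P-values were adjusted by Benjamini-Hochberg over all of them, and 0.05 was the threshold. The SE of a log2 fold change is its size divided by the square root of the F statistic of its test. It restates that test and is not a separately estimated error. The stage and gut-part contrasts average labelled, Lgr5+ and Lgr5- cells. The fit was tested on simulated data. Log2 CPM used a prior count of 2. Replicates of a group differed by a chi-square of 14.3 to 346 per degree of freedom, so none was a copy. Replicates are separate embryos or pools of embryos.

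Members and lists were chosen with earlier results of these data known. Of 146 genes on 9 lists of cell types 145 were matched. Named are the 8 members, the 3 genes most like each member that passed the filter, the 3 list genes with the highest CPM of each list, list genes called in a contrast with at most 5 calls on the pancreatic exocrine and hepatic plasma protein lists, and Epcam, Cdx2, Lgr5, Axin2 and Id2. A few genes chosen this way are left unreported here. The exocrine, plasma protein and marker genes named besides these (such as Ptf1a, Pdx1, Asgr1, Cyp7a1 and the islet hormones) were chosen after their values were seen. Axin2 was at 0.840 to 13.1 CPM and Id2 at 338 to 2299 CPM over all libraries.

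Same-numbered libraries share a number in the titles, and the labels do not say what it marks. Their deviations from group means correlated above 0.1 in all 3 pairs, over 9289 genes, for the Lgr5 gate at E13.5 in the Axin2 line (0.236 to 0.727) and the Id2 line (0.280 to 0.499), and for labelled against Lgr5- cells in the Id2 line (0.128 to 0.528) and the anterior part (0.403 to 0.720). Between the gut parts this held for labelled cells (0.335 to 0.408) and not for Lgr5+ and Lgr5- cells. This pairing is read from the data. Alternatives were RLE size factors, no filter, the replicate number as a block, DESeq2 1.42.0, the libraries of the contrast alone, and leaving out each library.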

Additional observations from a re-analysis of the deposited data

How the results depend on the processing

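The results counted here are the calls over all genes of the exocrine and plasma protein lists in each contrast. Clps, Amy2b and Afp are on these lists but were picked from results, and the counts are no test of them. RLE size factors and no filter on low counts changed no call of a member and moved no such count by over 1.5 times. Leaving out 1 library gave 17 to 20 calls for the stage contrast (19 with all libraries), 13 to 23 between the gut parts (24 with all libraries, 13 without anterior Lgr5+ replicate 2) and 2 to 3 for the Lgr5 gate in the Axin2 line at E13.5 (5 with all libraries). It was 7 between the gut parts without the 2 posterior libraries with blood cell genes, an alternative chosen after seeing the data.

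With the replicate block, list calls were 10 for the Lgr5 gate in the Id2 line (2 without the block) and 1 for that gate in the posterior part (0 without it), and the adjusted p of Trf between the gut parts was 0.00351. The check of deviations does not pair the posterior gate, nor the gut parts in all 3 populations. The block changed no other call of a member besides Cpa1, Ctrb1 and Ttr in the Id2 line. DESeq2 gave 8 list calls for the Lgr5 gate in the Axin2 line at E13.5, 12 in the Id2 line and 3 in the posterior part. It gave 3 for labelled against Lgr5- cells at E13.5 in the Axin2 line, 2 in the posterior part and 1 for the difference of the gate between the gut parts. The contrast's own libraries alone gave 9 in the Id2 line and 1 in the posterior part. The causes were not tested.

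Among single genes, the stage log2 fold change of Cpa1 was -0.20 with DESeq2, against a positive fitted value that is no bound. That of Ttr ran from -0.14 to 0.01 when 1 library was left out, being 0.0103 without E13.5 Lgr5- replicate 1 and 0.00704 without E13.5 Lgr5+ replicate 1. That of Trf for the Lgr5 gate in the Id2 line ran from -0.69 to 0.13, the last without Lgr5+ replicate 3. DESeq2 called Cpa1 for the Lgr5 gate in the Axin2 line (adjusted p = 0.0322) and Cpa1, Ctrb1 and Ttr in the Id2 line, and the Ttr call in the Axin2 line was lost with the contrast's own libraries (0.0767). Trf passed between the gut parts with DESeq2 (adjusted p = 0.0398) and with the contrast's own libraries (0.0235). Over all genes, calls between the gut parts were 565, with 928 under the block, 814 with DESeq2 and 1761 with the contrast's own libraries. For the Lgr5 gate they were 61 in the posterior part (529, 389 and 576), 74 in the Id2 line (343, 353 and 26), in the same order of settings, and 0 in the anterior part, with 42 by DESeq2. In the Axin2 line at E13.5 those settings gave 233, 250 and 381.

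The group with the highest mean was the same for 4 to 7 of the 8 members when replicate 1, 2 or 3 was left out of every group, and 4 without replicate 2. Of the 21 genes named as most like a member, 9 were also among the nearest 3 with Spearman's correlation and 11 without subtracting the mean of each line. Depth limits Alb and Amy2b most, since most of their libraries were at 0 reads.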
